A study of Drosophila melanogaster with 30 samples.

Results

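Replication timing of female wing discs was compared between flies whose histone H4 carries arginine in place of lysine 16 (H4K16R) and flies with wild-type histones on the same kind of transgene (HWT). Every 100 kb window of the chromosome arms 2L, 2R, 3L, 3R and X and of chromosome 4 that had a value in both genotypes was taken, which gave 13389 of the 13391 windows listed. The windows start every 10 kb, so neighbours share most of their DNA. The measure is the log2 of the H4K16R S/G1 ratio minus the log2 of the HWT S/G1 ratio, and a positive difference means relatively more DNA copies in S phase, that is earlier replication, in H4K16R.

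The 2 genotypes share most of their background. Both lack the endogenous histone gene cluster, as ΔHisC, UAS-2xEYFP over ΔHisC, twi-GAL4, and both carry 12 copies of the 5 kb histone repeat on a transgene, with either wild-type or H4K16R genes. The labels write ΔHisC in the father's genotype for the HWT cross but leave it out of the genotype given for the H4K16R and H3K9R fathers. Discs came from wandering larvae of the third instar raised at 25 °C, and their nuclei were stained with DAPI and sorted by DNA content with conservative gates. Each genotype had 2 S-phase libraries and 1 G1 library, which are 6 of the 18 Repli-seq libraries of a study of 30 libraries. Male HWT and H4K16R discs, female H3K9R discs (histone H3 with arginine at lysine 9) and female yw discs, with the endogenous histone genes in place, are used here for comparison. His4r, a separate H4 gene outside the deleted cluster, still encodes wild-type H4 in all of them. Discs were pooled, and the timing files hold no RNA levels, so the wing disc label could not be checked against markers.

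In an S-phase population, a locus that replicates early is present in more copies than one that replicates late, so the S/G1 ratio along a chromosome reads out the order of replication. Gene-rich, transcribed euchromatin usually replicates early, and pericentromeric heterochromatin and long gene-poor domains late. Acetylation of H4 lysine 16 loosens contacts between nucleosomes. In male flies the MSL complex places it along the X chromosome for dosage compensation, which females lack, and in both sexes it also occurs on autosomal genes.

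The authors' files give 1 value per window and genotype, so the spread between replicates is not known, nor is the depth, and every difference below is a description without a test. A difference of 0.1 or more was used as a fixed size for counting windows and not as a call of significance. The authors deposited the profile of the HWT females in both the H4K16R table and the H3K9R table. The same libraries, by their labels, differed between the 2 tables, after centring on the median, with an SD of 0.0325 over 13388 windows, and 206 windows (1.54%) differed by 0.1 or more. The sources used here do not say how that profile came to differ, and this difference holds no spread between replicates or animals.

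Most windows differed by less than 0.1 between the genotypes, a size close to the interquartile range of the HWT profile itself, 0.0918. The median difference over 13389 windows was -0.0030, with quartiles at -0.0317 and 0.0260, and 13022 windows (97.3%) differed by less than 0.1. The median absolute difference was 0.0288. Across windows the Spearman correlation of HWT with H4K16R was 0.873, and that of the 2 HWT profiles with each other was 0.969. The windows earlier by 0.1 or more in H4K16R numbered 104 (0.777% of all), and those later numbered 263 (1.96%). Among 1342 windows that do not overlap each other, 11 were earlier and 31 later. In males, 147 of 13293 windows were earlier (1.11%) and 98 later (0.737%). The female and male differences share no libraries, and across windows their Spearman correlation was -0.0578, given as a description.

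The female H4K16R profile had a wider range than its HWT partner. The interquartile range of log2 S/G1 over windows was 0.0918 in HWT and 0.135 in H4K16R, a ratio of 1.47. Early windows stood higher and late windows lower in H4K16R than in HWT. The ratio was 1.10 when H4K16R was set against the HWT profile of the H3K9R table, whose interquartile range was 0.122, and 0.945 in males, where HWT had 0.135 and H4K16R 0.127. The HWT profile of the H4K16R table was thus the narrowest of the HWT and mutant profiles, and the yw profile had 0.0994.

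Sorting windows by their timing in yw discs, whose libraries enter neither profile, showed this as a gradient. The windows were put into 5 classes of equal size. In the latest class the median difference was -0.0437, in the next classes it was -0.0202, -0.0019 and 0.0126, and in the earliest class it was 0.0351. The median log2 S/G1 of the latest class was -0.136 in HWT and -0.180 in H4K16R, and that of the earliest class was 0.0551 and 0.0898. Late-replicating windows were thus later in H4K16R and early-replicating windows earlier. Only 13.6% of windows in the latest class had a positive difference, against 82.6% in the earliest class. Of the 263 later windows 231 lay in the latest class, and of the 104 earlier windows 66 lay in the earliest class.

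The gradient had the same direction on each part of the genome examined. The median of the earliest class minus that of the latest was 0.0788 over all windows, 0.0752 outside the pericentromeric blocks, 0.0817 on the X outside its block and 0.0735 on arms 2L to 3R outside theirs. In males the same measure was -0.0170 over all windows. In H3K9R females, which share the HWT libraries, it was 0.0107 over all windows and 0.0337 outside the blocks. Outside the blocks it was 0.0265 on the X and 0.0361 on arms 2L to 3R in H3K9R females. The size of the gradient in H4K16R females depended on which HWT profile was used. With that of the H3K9R table it was 0.0519, with class medians from -0.0253 to 0.0266. It shrank to 0.0113 when H4K16R was quantile-normalized to HWT, and when both profiles were given the same median and interquartile range it reversed to -0.0074. The counts of windows turned with it, to 55 earlier and 59 later under quantile normalization and to 210 earlier and 20 later with matched interquartile ranges. A stretch of the whole profile and a real move of late and early DNA in opposite directions cannot be told apart in these values.

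**Figure D1:**
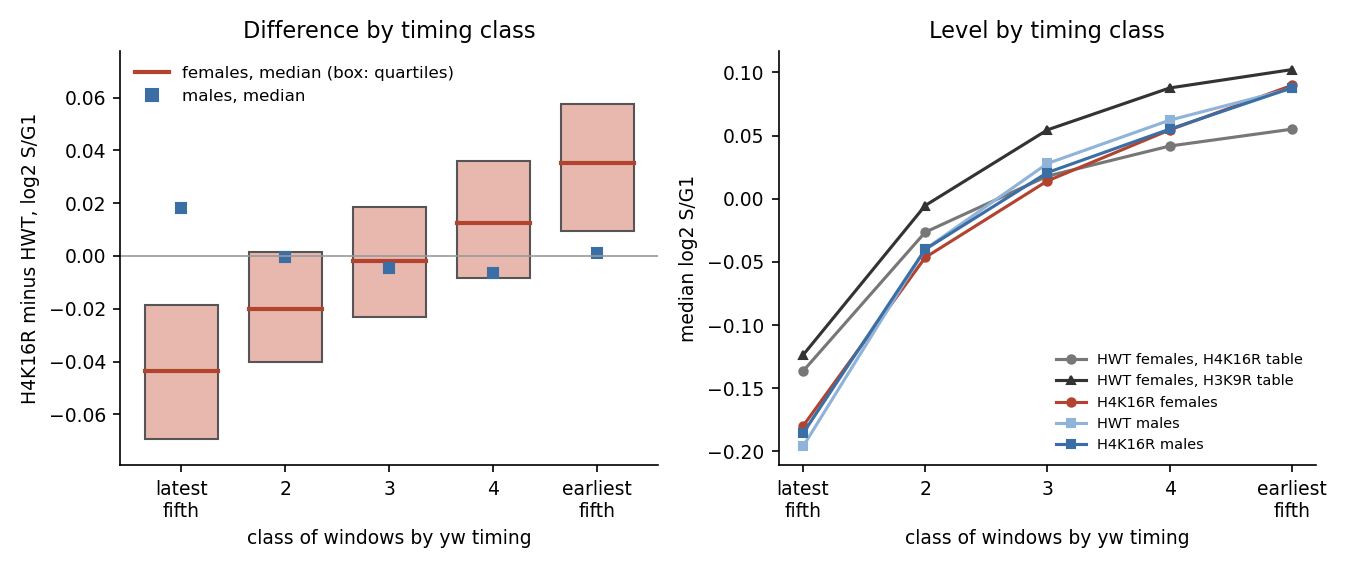
Windows grouped into 5 equal classes by yw timing (x axis, latest to earliest). Left, the H4K16R minus HWT difference in log2 S/G1, with the female median as a red line in a box from the lower to the upper quartile and the male median as a blue square; the female medians run from -0.0437 to 0.0351. Right, median log2 S/G1 per class of 5 profiles; the HWT females of the H4K16R table have the lowest level of the 5 in the earliest class, 0.0551, against 0.0898 in H4K16R females.

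Pericentromeric DNA had lower S/G1 values in H4K16R females. The blocks were set on dm6, the build the submitters' processing notes name, as the DNA past 22 Mb on 2L and X and past 23 Mb on 3L and the first 6 Mb of 2R and 4 Mb of 3R, and they held 1824 windows (13.6%). Their median log2 S/G1 was -0.158 in HWT and -0.206 in H4K16R, with a median difference of -0.0401. The 11432 windows outside the blocks on the same arms had a median difference of 0.0006. Of the later windows 200 lay in the blocks (76.0% of the later windows and 11.0% of the block windows), and only 16 block windows were earlier.

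All 5 blocks had a negative median, but they were not alike. The block of 3R, the latest-replicating of the 5 in HWT with a median of -0.331, had the most negative difference, -0.0610, and 66 of its 395 windows (16.7%) were later and 0 earlier. The blocks of X and 3L followed at -0.0436 and -0.0416, then 2R at -0.0303. The block of 2L was nearest to 0, at -0.0206, with 3 of 157 windows later and 6 earlier. In males the block of 3R differed in the opposite direction, with a median of 0.0462 and 79 windows earlier, and so did the blocks of 2L, 2R and 3L, at 0.0321, 0.0159 and 0.0228. The male block of X was at -0.0163.

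The pericentromeric difference also depended on the HWT profile and the scale. Block windows minus windows outside came to -0.0407 with the deposited values, -0.0169 with the HWT profile of the H3K9R table, -0.0021 after quantile normalization and 0.0214 with matched interquartile ranges. Against the HWT profile of the H3K9R table, centred, the block of 3R kept its difference at -0.0653, with 144 windows later, while that of 2R was at -0.0042 and that of 2L at 0.0234. With matched interquartile ranges all 5 block medians were positive, from 0.0084 on 2L to 0.0617 on 3R. The 2 HWT profiles themselves differed most in the blocks, where 8.17% of windows were 0.1 or more apart. Late replication outside the blocks had a similar difference: windows of the latest class had a median of -0.0487 inside the blocks (1507 windows) and -0.0404 outside them (1167 windows).

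**Figure D2:**
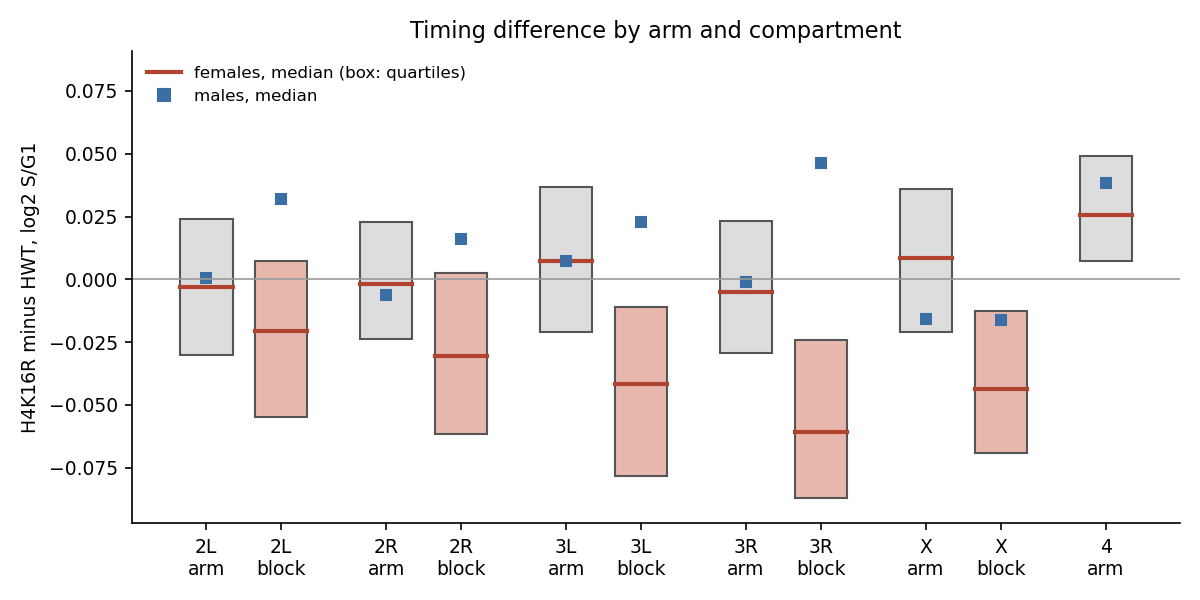
H4K16R minus HWT difference in log2 S/G1 (y axis) for windows outside and inside the pericentromeric block of each arm. Red lines are female medians, boxes run from the lower to the upper quartile and blue squares are male medians. The 5 female block medians lie between -0.0610 and -0.0206, and 4 of the 5 male ones lie above 0.

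Along the arms, the lowest bins of 1 Mb lay near the centromere side on 4 arms. The lowest bin was 1 to 2 Mb from the centromere-side end on 3R (-0.0753) and on X (-0.0625), 2 to 3 Mb on 3L (-0.0650) and 0 to 1 Mb on 2R (-0.0587). On 2L the lowest bin, at -0.0467, lay 17 to 18 Mb from that end, within the arm. The telomere-side megabases differed the other way, with a median of 0.0128 over 495 windows, of which 64.0% were above 0, and of 0.0020 after quantile normalization and 0.0063 with matched interquartile ranges. That median was 0.0465 on 3L, 0.0256 on 2L, 0.0150 on 3R, 0.0121 on X and -0.0013 on 2R.

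**Figure D3:**
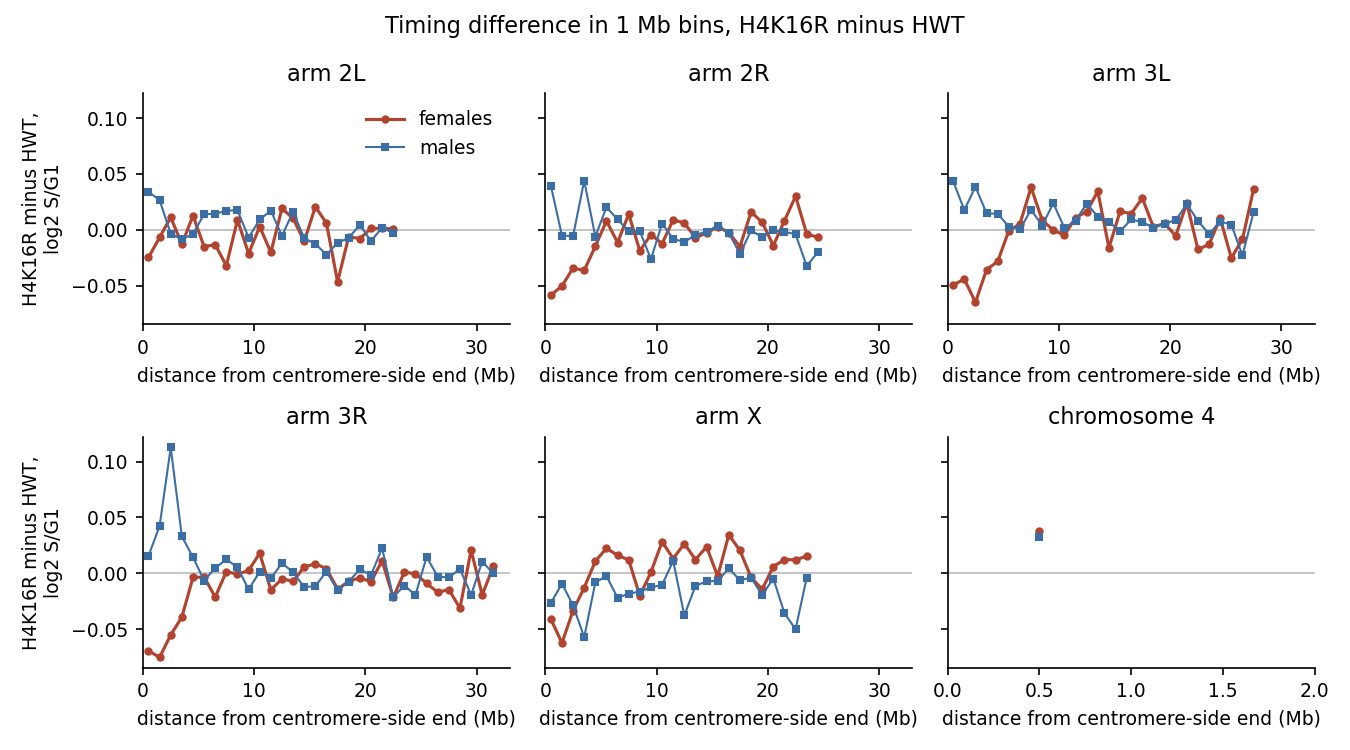
Median H4K16R minus HWT difference in log2 S/G1 in 1 Mb bins (y axis) against distance from the centromere-side end of each arm in Mb (x axis), in females (red circles) and males (blue squares). Female values drop toward the centromere side of 2R, 3L, 3R and X, to -0.0753 on 3R, while the highest male bin on 3R is at 0.1126.

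Timing domains, taken as stretches of at least 10 consecutive windows within the latest or the earliest class of yw, had means that nearly all followed their class. Of 60 late domains 58 had a mean difference below 0, with a median of -0.0395, and of 109 early domains 101 had a mean above 0, with a median of 0.0369. Late domains outside the blocks gave 44 of 45 below 0. On the X, all 6 late domains outside the block were below 0 and all 22 early domains above 0. The late domain with the most negative mean was an intercalary one at 3R:17180001-17420000, at -0.0881 (HWT -0.0768, H4K16R -0.165). The early domain with the most positive mean lay at X:12620001-12840000, at 0.0829 (HWT 0.0399, H4K16R 0.123). The male means of these 2 domains were 0.0087 and 0.0144. Those of H3K9R females, which share the HWT libraries, were -0.0641 and 0.0498. In males, 43 of the 60 late domains were above 0, and 60 of the 109 early ones. Since a domain is a group of windows from the same profiles, its sign follows the class gradient and carries the same dependence on scale.

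**Figure D4:**
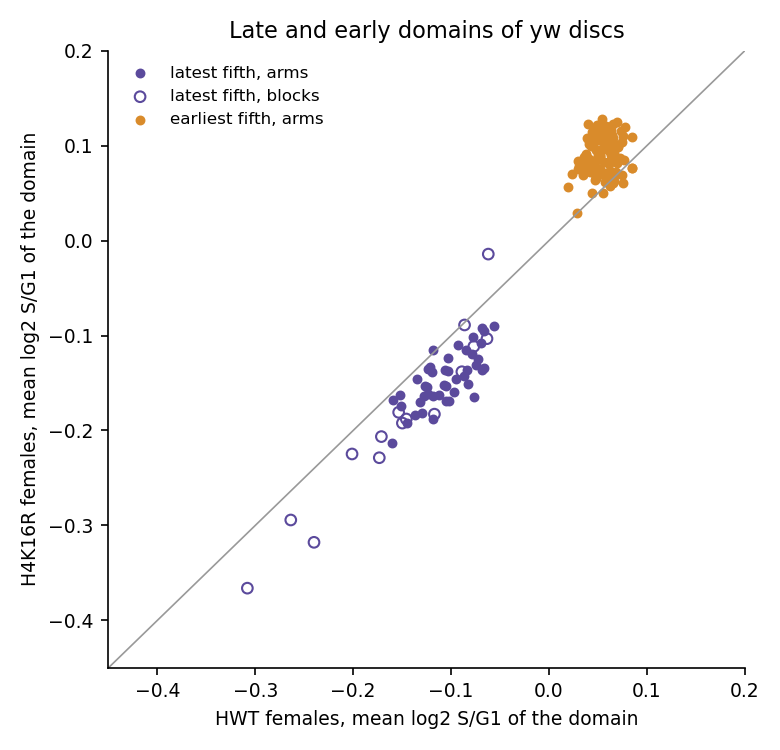
Mean log2 S/G1 of each yw timing domain in HWT females (x axis) and H4K16R females (y axis), with late domains in purple (filled on the arms, open in the blocks) and early domains in orange. The grey line marks equal values; 58 of 60 late domains lie below it and 101 of 109 early domains above it.

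The X did not stand out in females by size, but its small difference had the opposite sign to that of males. The female X median was 0.0064 over 2355 windows and that of arms 2L to 3R was -0.0053 over 10901, so X minus autosomes was 0.0118. In males the X median was -0.0159 and X minus autosomes -0.0186. In H3K9R females, which share the HWT libraries, the X median was 0.0031 and that of arms 2L to 3R -0.0023. The female X stood at 0.0019 in HWT and 0.0082 in H4K16R, and the male X, which replicates early under dosage compensation, at 0.0460 and 0.0269. In 1 Mb bins, 16 of 24 on the female X were above 0, while 22 of 24 on the male X were below 0. Within each yw class the female X was above the autosomes, by 0.0008 in the latest class and by 0.0089 to 0.0173 in the others, and the male X was below them in all 5. The female X minus autosome value stayed positive under every alternative run, matched interquartile ranges included. The tables used here hold no values per replicate with which to test the female X against the autosomes or against the male X.

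Arm medians ran from -0.0090 on 3R and -0.0066 on 2R through -0.0047 on 2L to -0.0001 on 3L and 0.0064 on X.

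Chromosome 4, the small and largely heterochromatic autosome whose genes are nevertheless expressed, had a positive difference over most of its length. Its median log2 S/G1 was 0.0417 in HWT and 0.0663 in H4K16R over 133 windows, the median difference was 0.0254, and 81.2% of windows were above 0. In males the level was 0.0026 in HWT and 0.0383 in H4K16R, with a median difference of 0.0384. In H3K9R females, which share the HWT libraries with the H4K16R females, it was 0.0339. Chromosome 4 minus arms 2L to 3R was 0.0308, and ranged from 0.0074 with matched interquartile ranges to 0.0386 with the HWT profile of the H3K9R table. Of 16 chromosome 4 genes listed for description, 14 lay in windows with a positive difference, and 12 or more under each other scaling. Asator, a tau-tubulin kinase gene, was at 0.070, Ank, which encodes an ankyrin, at 0.058, and pan, the TCF factor of Wingless signalling, at 0.054. No chromosome 4 window was earlier by 0.1, and the 5 later ones lay together at its distal end.

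Windows past 0.1 gathered in runs. With at least 5 consecutive windows per run there were 7 earlier runs, with 49 windows, and 19 later runs, with 147 windows. All 7 earlier runs lay outside the pericentromeric blocks, and 16 of the 19 later runs lay inside them. The longest earlier run covered 240 kb and the longest later run 270 kb. Each of the 26 runs kept the sign of its mean difference against the centred HWT profile of the H3K9R table and after quantile normalization. With matched interquartile ranges all 7 earlier runs kept it, but 5 of the 19 later runs, of which 4 lie in the block of 3R, did not. The runs were chosen by the size of this same difference. All these settings reuse the H4K16R profile and, by the labels, the same HWT libraries, so a kept sign is no independent support. The male means were 3 above and 3 below 0 for the 6 earlier runs with male values, and 13 above and 6 below 0 for the later runs.

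The run at 3R:4930001-5170000 was the longest earlier run, with 15 windows. Its strongest window stood at 0.0252 in HWT and 0.168 in H4K16R, a difference of 0.142, and yw had 0.15 there. HWT was thus the lowest of these 3 at a locus that replicates early in yw. H3K9R females stood at 0.0373 there and the HWT profile of the H3K9R table at 0.0075. Males stood at 0.108 in HWT and 0.122 in H4K16R. The window overlaps plh, Jhbp1 and Jhbp2, the last 2 named for juvenile hormone binding, and the male mean difference over the run was 0.0170. The run's mean was 0.124 with the deposited values and at least 0.0747 under the 3 other scalings. The run at 3R:21560001-21700000 holds genes of growth and S phase: InR, the insulin receptor, E2f1, the transcription factor that drives entry into S phase, and PolA1, a subunit of DNA polymerase alpha. Its strongest window stood at 0.0172 in HWT and 0.154 in H4K16R, with 0.127 in yw. A run at 2R:19890001-20030000 had 0.0085 in HWT, 0.142 in H4K16R and 0.108 in yw, with no gene that has a name beyond a CG or CR number. The 2 remaining earlier runs, on 3L, are named here after their values were seen. They cover fng, the Notch-modifying glycosyltransferase of the wing margin, at 3L:20830001-20990000 (0.0346 in HWT and 0.157 in H4K16R), and hid, a cell death gene, at 3L:18150001-18290000 (0.0173 and 0.134). H3K9R females, which share the HWT libraries, also had positive mean differences over these runs. These were 0.0458 and 0.0575 for the 2 runs on 3R, 0.0730 on 2R, and 0.0720 and 0.0742 at fng and hid. The H4K16R means were 0.124, 0.122, 0.109, 0.113 and 0.109 in the same order. Over the earlier run at X:2730001-2890000 H3K9R had -0.221.

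The later runs lay mostly in gene-poor DNA. The strongest, at X:22260001-22410000, had no annotated gene in its strongest window, which stood at 0.0404 in HWT and -0.503 in H4K16R. The HWT profile of the H3K9R table had -0.221 at that window, so the run's mean was -0.275 with one HWT profile and -0.148 with the other. The run at 2R:3760001-3920000, also without genes in its strongest window, went from -0.0388 to -0.290. Its mean was -0.176, against -0.0644 with the HWT profile of the H3K9R table, and the male mean was 0.0690. At X:22040001-22230000 the strongest window held 15 genes with CG or CR numbers only and went from -0.198 to -0.446, and the run's mean was -0.186 with one HWT profile and -0.103 with the other. The run at 3R:1000001-1210000 lay within Myo81F, a long myosin gene of 3R heterochromatin. The run's strongest window stood at -0.276 in HWT, -0.484 in H4K16R and -0.291 in yw. With matched interquartile ranges the run's mean was 0.0159. The distal end of chromosome 4, 4:1280001-1348131, went from 0.136 to -0.113 in its strongest window, which is cut short by the chromosome end. Its mean of -0.174 came to -0.0518 with the HWT profile of the H3K9R table. At 3R:3590001-3740000 the run's mean of -0.135 came to -0.0158 with the HWT profile of the H3K9R table.

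Outside the blocks, 2 later runs besides that of chromosome 4 were found, named here after their values were seen. The run at 3R:17220001-17390000 covers beat-IIa and beat-IIb, of the beat family of axon guidance genes, and had a mean difference of -0.123 (HWT -0.0743, H4K16R -0.197). The run at X:20650001-20790000 covers run, the runt segmentation gene, hydra and Cyp6v1, and had a mean difference of -0.111 (HWT -0.139, H4K16R -0.249). The H3K9R females, which share the HWT libraries, had -0.0946 and -0.106 over the same runs, and the males 0.0252 and -0.0413.

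**Figure D5:**
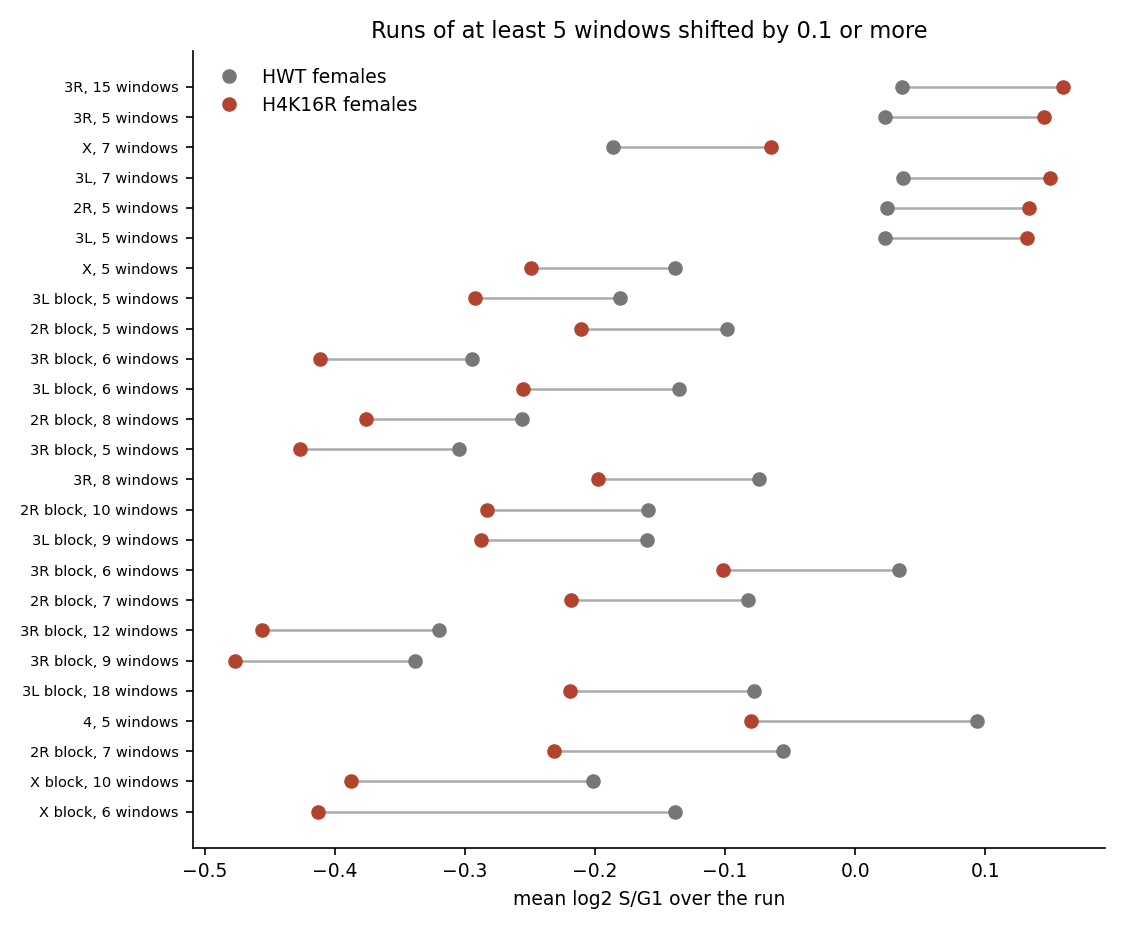
Mean log2 S/G1 (x axis) in HWT (grey) and H4K16R (red) females over each of 25 runs of at least 5 consecutive windows that differ by 0.1 or more in the same direction, labelled by arm, block and number of windows and ordered by difference. The histone gene cluster is left out because of its scale; the 6 earlier runs shown have H4K16R to the right of HWT, and all later runs but 3 carry the label of a block.

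The values farthest from 0 lay in windows that could not be compared with males. All 13 windows past 0.3 in either direction are absent from the male table together with others, 96 in all. Where males have a value, the female difference ranged from -0.251 to 0.160. The histone gene cluster, with 111 histone genes at 2L:21416953-21541681, gave a run whose strongest window had an S/G1 ratio of 1.10 in HWT and 3.15 in H4K16R. Both genotypes, by their labels, lack this cluster and carry their histone genes on a transgene, so values there cannot be read as timing of this locus. Its run is still counted among the 7 earlier runs, and its 5 windows among the 104 earlier windows. In the H3K9R table the strongest window of this run stood at 0.0112 in HWT and -0.0030 in H3K9R. At 2L:22800001-22900000 the ratio was 0.645 in HWT and 2.77 in H4K16R, and at 3L:27480001-27580000 it was 2.3 in HWT and 0.828 in H4K16R. The HWT profile of the H3K9R table had -0.0689 and -0.160 on the log2 scale at these windows.

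An earlier run on X, at X:2730001-2890000, had sharp edges in HWT females. Its strongest window lies within kirre, an adhesion gene of muscle founder cells, and holds w, an eye pigment transporter. This window stood at -0.214 in HWT, -0.0539 in H4K16R and 0.0276 in yw. HWT stood at -0.0150 in the last window before w and at -0.106 in the first window with it, and at -0.214 in the last window with w and -0.0110 in the first past it. H4K16R had -0.0297 and -0.0316 on the near side and -0.0539 and -0.0816 on the far side. H3K9R went from -0.0084 to -0.249 on entry and from -0.393 to -0.0558 on exit. HWT males had 0.0482 and 0.0471 at the entry edge, and went down from -0.0456 to -0.114 on exit. The step thus coincides with the 10 kb that hold w in HWT and H3K9R females. It was not seen at those edges in H4K16R females or in HWT males. Whether the stocks differ in copies of w was not tested. Past the run the sign turned, with -0.158 at X:2830001-2930000.

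Genes of the dosage compensation system did not lie in windows of 1 kind. Of 10 genes, 6 lay in windows with a positive difference, against 53.5% of all 17684 RefSeq genes on these arms, and the median was 0.0066, against 0.0033 for all genes; the list's median was below 0 under the 3 other scalings. Clamp, which encodes a zinc finger protein that recruits the MSL complex, and which lies in the block of 2L, was at 0.10 (HWT -0.0080, H4K16R 0.096). The 2 roX genes, whose RNAs are part of the MSL complex in males, differed in opposite directions: roX1 went from 0.0337 to -0.0554 and roX2 from 0.0009 to 0.0764. For msl-2, the subunit that females do not make, the difference was -0.0033, for mof, the H4 lysine 16 acetyltransferase, 0.0183, and for Sxl, the switch that blocks msl-2 in females, 0.0234. H3K9R females, which share the HWT libraries, differed from HWT by 0.0603 at Clamp, -0.0569 at roX1 and 0.0805 at roX2. Their differences were -0.0217 at msl-2, -0.0207 at mof and 0.0252 at Sxl.

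Of 29 wing patterning and growth genes 22 had a positive difference (75.9%, against 53.5% of all 17684 RefSeq genes), with a median of 0.0329. In the list 1 gene was past 0.1, while of all 17684 genes 162 were earlier by 0.1 and 51 later. The 162 include genes of the histone gene cluster, where values cannot be read as timing, and their number was not counted. The listed gene was vg, the wing selector, at 0.1003 (HWT 0.063, H4K16R 0.163). It was at 0.0493 after quantile normalization, 0.0549 with matched interquartile ranges and 0.114 with the centred HWT profile of the H3K9R table. Ser, a Notch ligand, was at 0.066 and kni, a vein patterning factor, at 0.076. After the median of each gene's timing class was taken away, the list's median was 0.0131, and under the 3 other scalings it was 0.0109 to 0.0256, with 19 or 20 of the 29 positive. Under those scalings 8557 to 9630 of all 17684 genes were positive, with medians of -0.0010 to 0.0032. Of 11 homeotic genes, which pattern the body axis, 3 were positive and 0 were past 0.1 in either direction, with a median of -0.0106 that was below 0 under each scaling. Their windows overlap, since 8 of them lie together at 3R:6661427-6999228 (median -0.0081) and 3 at 3R:16656623-16972236 (median -0.0363). Ubx, the haltere selector that is silenced in the wing disc, went from -0.0010 to -0.0722. Abd-B was at -0.036, and Antp and pb were at 0.0322 and 0.038. H3K9R females differed from HWT by -0.0571 at Ubx, -0.0373 at Abd-B, 0.0167 at Antp and -0.0208 at pb.

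DNA replication genes had a median of 0.0057, and 15 of 26 were positive, but the median was below 0 under the 3 other scalings. E2f1 was at 0.12, Orc1, a subunit of the origin recognition complex, at 0.093, and Sld5, of the GINS complex, at 0.074. A list of 24 genes drawn up as heterochromatic held 21 that lie in the blocks and 3, stck and Rpn7 among them, that lie on the arms. The 21 had a median of -0.0320, with 5 positive, and 0.0116 with 12 positive under matched interquartile ranges. Of the 21, vtd, the kleisin subunit of cohesin, was at -0.11, Pzl, a Piezo-like channel gene, at -0.10, and nvd, which acts in ecdysone synthesis, at -0.089. With the HWT profile of the H3K9R table vtd was at -0.016, and with matched interquartile ranges Pzl was at 0.025 and nvd at 0.012. A list of 29 mostly neuronal genes also holds the muscle genes sls and Msp300 and some short genes. It had 14 positive and a median of -0.0012 (0.0135 with matched interquartile ranges). Its values ran from beat-Ia (-0.067) and dpr8 (-0.065) to cac, a calcium channel gene (0.079). H3K9R females differed from HWT by -0.0904 at beat-Ia, -0.0141 at dpr8 and 0.0770 at cac. Ribosomal protein genes had a median of 0.0086 (-0.0027 after quantile normalization), with 56 of 92 positive. RpL34a, which takes the same window as Sld5, was at 0.074 and RpL17 at 0.073. The window of His4r was at -0.0205. After the timing class medians were taken away, the homeotic list had a median of -0.0102 and the chromosome 4 list one of 0.0193. No list was tested.

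RNA of the same genotypes, from other libraries, showed little relation to the timing difference. In the authors' deposited table of H4K16R against HWT females, 105 of 10775 entries (0.974%) had an adjusted p under 0.05. Entries in windows earlier by 0.1 numbered 264 in the authors' deposited table, with a median log2 fold change of 0.0541 and 1 entry called higher and 2 lower. Entries in later windows numbered 127 in the authors' deposited table, with a median of -0.0269 and 0 called higher and 1 lower. The other 10384 entries of the authors' deposited table had a median of -0.0045, with 38 called higher and 63 lower. The share called in earlier windows was 1.14% and in later windows 0.787%, close to that of all entries. Across 10775 entries the Spearman correlation of the RNA fold change (log2, from the authors' deposited table) with the timing difference was 0.0613.

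The authors' deposited table had 46 entries that overlap an earlier run and 36 that overlap a later run, and 0 of these were called. At 0.974% of all entries called, 82 entries are too few for that count to say anything about the runs. InR, E2f1 and PolA1 had log2 fold changes of 0.10, -0.0040 and -0.11 in the authors' deposited table. The 4 called entries whose interval midpoint fell in a window past 0.1 were Msh6 with FucTA (-0.52), E(spl)malpha-BFM (0.42) and the noncoding RNAs Vinr and CR44619 (-3.29) in earlier windows, and the interval of dnc with its nested genes (-0.47) in a later window, all from the authors' deposited table. The window centred on each of these had a smaller difference, 0.0637, 0.0864, 0.0859 and -0.0548 in that order. Timing at the 39 entries called higher had a median difference of 0.0047, at the 66 called lower -0.0012 and at the 10670 not called 0.0074, with calls from the authors' deposited table.

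Later windows held few genes. The median number of coding gene starts per 100 kb was 0 in later windows, 6 in earlier windows and 10 in all others, and coding genes covered 14.8%, 59.5% and 76.6% of the windows at the median. Within the blocks, where 200 of the 263 later windows lie, later and other windows both had a median of 0 gene starts. Coverage there was 9.04% at the median in later windows and 35.3% in the others, with upper quartiles of 100% and 83.3%. Outside them, later windows had 5 gene starts, earlier windows 7 and the others 11, so that windows past 0.1 in either direction had fewer genes than the other windows of the arms.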

How the data were processed

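Timing was read from the authors' deposited tables. The H4K16R female table gives a deposited linear S/G1 ratio per genotype in 100 kb windows that start every 10 kb, and log2 was taken here. The other timing tables hold deposited values near 0; these were taken to be log2, although no header gives the base; yw was given in 10 kb bins and averaged over windows with at least 5 bins. For RNA, the deposited table holds log2 fold changes and adjusted p-values, per the file headers; the numerator was read as H4K16R over HWT. The authors used Bowtie2 2.3.2, SAMtools 1.6, bedtools, limma, TopHat, Cufflinks 2.2.1, edgeR and dm6, per the submitters' processing notes, which give no roles. The sources used here do not say how S replicates were combined. Depth is unknown.

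Windows, classes, blocks, runs and lists were computed with Python 3.11.15, numpy 2.4.6, pandas 2.3.3 and matplotlib 3.10.9 and tested on simulated data. Gene names come from RefSeq Release 6; a gene takes the window centred nearest its midpoint, and RNA entries were placed by midpoint. Named are, per direction, the 5 runs with the strongest windows and up to 3 of their named genes, fixed dosage compensation, homeotic and histone loci, and up to 3 members per list with the largest absolute difference. Members, lists and the size of 0.1 were chosen with earlier results of these data known. Planned GC content was not computed, since no genome was used here. One member that the naming rule picks is not reported here.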

Additional observations from a re-analysis of the deposited data

How the results depend on the processing

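No paired analysis was possible because the files give 1 pooled value per genotype, and for the same reason no replicate could be left out in turn. Depth is unknown, so no limit from it can be stated. Counts of earlier and later windows were 104 and 263 as reported. They came to 11 and 31 in windows that do not overlap (fewer windows), 55 and 59 after quantile normalization, 210 and 20 with the same median and interquartile range, and 67 and 911 with the HWT profile of the H3K9R table. The HWT profile of the H4K16R table stood below that of the H3K9R table, with a median offset of -0.0373. With the difference centred, an alternative chosen after seeing the data, there were 234 earlier and 237 later windows. Other sizes gave 1441 and 1828 at 0.05, 15 and 54 at 0.15, and 10 and 16 at 0.2. Without the pericentromeric blocks 63 later windows were left. The block difference was -0.0021 after quantile normalization, -0.0169 with the HWT profile of the H3K9R table, centred or not, and reversed to 0.0214 with matched interquartile ranges. The class difference was 0.0113, 0.0519 and, reversed, -0.0074 under the same settings, and 0.0455 with classes set by HWT itself. X minus autosomes by means was 0.0077. Earlier runs numbered 1 with at least 10 windows, 1 at a size of 0.15, 16 with matched interquartile ranges and 15 with the centred HWT profile of the H3K9R table, the last 2 chosen after seeing the data; later runs numbered 4, 3 and 0 under the first 3 of these. The cause of these moves was not tested beyond what fewer windows, a larger size, the scaling or the offset fix by construction. In 43 further combinations of result and setting the direction stayed, and a count stayed within 1.5 times; among them are moved block boundaries and only windows that the male table lists. They also hold the ratio of interquartile ranges, which went from 1.47 to 1.10 with the HWT profile of the H3K9R table. With that profile centred they hold the later runs, which went from 19 to 15, and the 237 later windows given above.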

Other observations

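The HWT females of both tables differed in a patterned way. After centring, the HWT profile of the H4K16R table stood above that of the H3K9R table by 0.0155 in the latest class of windows and at -0.0125 relative to it in the earliest class, and of the 206 windows past 0.1 it was higher in 170 and lower in 36. Of the 104 windows earlier in H4K16R, 102 had the same sign against the other HWT profile and 72 were again past 0.1, which is 69.2% of the first list and 30.8% of the 234 of the second. Of the 263 later windows, 249 had the same sign and 119 were again past 0.1, which is 45.2% of the first list and 50.2% of the second. These lists share the H4K16R profile. The difference in H4K16R females correlated with yw timing at a Spearman rho of 0.622 over 13367 windows, and at 0.384 with the other HWT profile, centred; the male difference had -0.153 over 13279 windows. These correlations are across overlapping windows of shared libraries and are descriptions.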
